A study of Mus musculus with 8 samples.

Results

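The 10 genes described here are parts of bone morphogenetic protein (BMP) signalling and its best known transcriptional targets: the ligand genes Bmp4 and Bmp7, the type I receptor genes Bmpr1a and Bmpr1b, the inhibitory SMAD genes Smad6 and Smad7, and the ID genes Id1, Id2, Id3 and Id4. They were chosen by gene symbol with earlier results of these data known, and all 10 were among the 32499 genes of the count table. The RNA came from neural progenitors sorted out of neural tubes of mouse embryos (embryonic day 14), in 4 libraries whose genotype is given as 53BP1 KO (KO-labelled below) and 4 given as Control. The KO-labelled embryos came from Trp53bp1tm1Jc females, which carry a targeted knockout allele, mated to males with in-frame deletions in the same gene made by CRISPR in C57BL/6J zygotes, and the control embryos were wild type, per the labels' protocols. The locus was sequenced to pick embryos with a deletion and the knockout allele, but the labels do not say which deletion each library carried. Both groups are given as C57BL/6. Either of 2 sequencer models was used, and which one made each library is not stated. Cells of both groups were sorted with NeuroFluor CDr3, a dye that binds Fabp7, and whether they were then cultured is not given per library.

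BMP ligands bind a pair of type II and a pair of type I receptors at the cell surface, and the type I receptor then phosphorylates SMAD1, SMAD5 or SMAD9, which enter the nucleus with SMAD4. Among the genes they turn on are Smad6 and Smad7, whose proteins block the receptors in a feedback loop, and the ID genes. ID proteins carry a helix-loop-helix domain without a DNA-binding region; they capture E proteins such as Tcf3, Tcf4 and Tcf12 and so keep proneural factors from DNA. In the developing neural tube, BMP signalling patterns the dorsal side, and later, together with ID proteins, it favours progenitor upkeep and the making of astrocytes over neurons.

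Total counts were between 11081419 and 24339621 in the KO-labelled libraries and between 15343046 and 18189045 in the controls. A gene with 3 counts had between 0.126 and 0.261 CPM (read count scaled by library size with TMM factors), and intervals cover counting error and the spread between libraries only. Replicates of a group all differed from each other by more than counting noise (chi-square per degree of freedom of at least 4.45). Separate embryos or cultures are not stated, so p-values speak only of how these libraries varied, and that variation could be technical. Trp53bp1, the targeted gene, had 27.1 ± 6.36 CPM in KO-labelled libraries and 26.8 ± 0.349 CPM in controls (SD, n = 4 each), a log2 fold change of 0.01 ± 0.14 (SE) with an edgeR adjusted p of 0.96, so its level did not separate the groups. Its exons overlap those of Tubgcp4 on the other strand, which was lower (-0.47 ± 0.11 SE, edgeR adjusted p = 0.00497). Xist, from the inactive X chromosome, had 9 to 16 counts in each KO-labelled library and between 23853 and 26134 in the controls, and Y-linked Ddx3y had 579 to 1064 counts in each KO-labelled library and 0 in every control. Genotype label and sex therefore coincided in 8 of 8 libraries and cannot be told apart in any difference below. None of the 10 genes lies on a sex chromosome. Id1 and Bmp7 lie on chromosome 2, as does Trp53bp1. Of 10 neural progenitor markers, Fabp7, Sox2, Pax6 and Nes among them, all 10 were expressed in every library. They summed to between 8098.6 and 11206 CPM in KO-labelled libraries and between 8582.7 and 10901 CPM in controls. Fabp7, which the sorting dye binds, made most of these sums (mean of 7792.7 CPM in KO-labelled libraries and 7591 in controls). The sums are thus no check independent of the sort. By the test below, 5 of the 10 were higher and 3 lower, Sox2 among the former and Nes among the latter.

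Of the 10 genes, 9 had enough counts to be tested, and 5 of these passed the threshold (adjusted p under 0.05 by edgeR's quasi-likelihood test, adjusted over all 15021 genes tested). Bmpr1b, Smad6, Id4 and Id2 were higher in the KO-labelled libraries, and Id3 was lower. Bmp7, Bmpr1a, Smad7 and Id1 did not pass, and Bmp4 was too low to test. Over all genes 30.0% were called, 16.1% as higher and 13.9% as lower. These shares are the background for the counts of called genes in each list below. In these bulk samples, fewer cells of a type and less RNA per cell cannot be told apart.

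The promoters of the genes that changed are shown first, because SMAD proteins of this pathway bind near its targets. SMAD binding was not measured here, and whether it had a part in these changes was not tested. RefSeq promoter windows (build GRCm38.p6) were held for 7 of the 10 genes, and those of the 5 genes that passed the test are printed 5′ to 3′ from 250 bases before to 10 bases after the annotated start. For Bmpr1b, which has several annotated starts, the most upstream one is shown. Capitals mark a match of GGCGCC, the GC-rich element bound by SMAD1 and SMAD5, or of GTCTAGAC, the palindromic SMAD binding element. The counts themselves were made on another assembly (mm9, per the submitters' processing notes), so these coordinates serve the sequences only.
Smad6, chr9:64022050-64022309, minus strand: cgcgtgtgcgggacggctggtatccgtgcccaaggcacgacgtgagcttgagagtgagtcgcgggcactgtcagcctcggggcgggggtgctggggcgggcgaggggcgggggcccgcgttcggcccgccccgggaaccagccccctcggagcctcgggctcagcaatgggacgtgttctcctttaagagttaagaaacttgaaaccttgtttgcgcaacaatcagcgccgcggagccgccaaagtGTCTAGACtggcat
Id4, chr13:48260866-48261125, plus strand: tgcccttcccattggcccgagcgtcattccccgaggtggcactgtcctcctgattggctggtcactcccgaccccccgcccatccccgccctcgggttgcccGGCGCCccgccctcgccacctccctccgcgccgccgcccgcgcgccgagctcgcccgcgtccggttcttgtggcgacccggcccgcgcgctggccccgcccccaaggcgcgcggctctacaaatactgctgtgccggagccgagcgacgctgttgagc
Id2, chr12:25096083-25096342, minus strand: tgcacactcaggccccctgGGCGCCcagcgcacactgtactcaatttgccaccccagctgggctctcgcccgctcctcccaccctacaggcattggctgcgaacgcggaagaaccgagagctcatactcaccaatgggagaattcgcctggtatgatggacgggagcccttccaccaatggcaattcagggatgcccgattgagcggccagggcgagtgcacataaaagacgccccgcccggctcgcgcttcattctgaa
Id3, chr4:136143572-136143831, plus strand: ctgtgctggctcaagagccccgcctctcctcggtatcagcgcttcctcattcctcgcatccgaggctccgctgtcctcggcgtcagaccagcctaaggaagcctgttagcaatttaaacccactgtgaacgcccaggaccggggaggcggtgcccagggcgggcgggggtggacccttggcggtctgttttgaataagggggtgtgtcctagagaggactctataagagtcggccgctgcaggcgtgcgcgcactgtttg
Bmpr1b, chr3:141982255-141982514, minus strand: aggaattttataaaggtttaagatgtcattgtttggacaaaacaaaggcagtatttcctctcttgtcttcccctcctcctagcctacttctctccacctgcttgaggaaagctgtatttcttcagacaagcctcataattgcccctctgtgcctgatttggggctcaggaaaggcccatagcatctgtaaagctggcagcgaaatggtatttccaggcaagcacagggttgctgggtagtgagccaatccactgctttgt

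The Smad6 window held GTCTAGAC across the start itself, from base -4 to base 4. Of 32851 promoter windows of 300 bases, 0.213% held these letters, which read the same on both strands. GGCGCC, also the same on both strands, stood from base -148 to -143 in the Id4 window and from base -231 to -226 in the Id2 window, and 11.9% of all windows held it. Bmpr1a, whose level did not separate the groups, also held GGCGCC, from base -198 to -193. The windows of Id3 and Bmp4 and the 3 windows of Bmpr1b held no match of either motif. The joint element, in which GTCT follows GGCGCC after 5 bases as in the known enhancer of Id1, was searched on both strands. It was in 0.0731% of all windows and in none of these 7 genes, and it overlaps GGCGCC by construction. No window was held for Id1, Bmp7 or Smad7, so Id1 itself was not searched. Sites outside the windows were not searched for any gene. A match is a run of letters and not a measured binding site.

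Neither ligand gene was shown to differ. Bmp7, which encodes a ligand made by dorsal and meningeal tissues as well as by progenitors, had 156.7, 155.6, 161.0 and 166.4 CPM in KO-labelled libraries 1 to 4 and 194.4, 146.1, 155.8 and 129.1 CPM in controls 1 to 4. The KO-labelled values lay inside the range of the controls, and the log2 fold change was 0.03 ± 0.11 (SE), with a 95% interval of -0.20 to 0.27 and an edgeR adjusted p of 0.854. The spread differed too, with a coefficient of variation of 3.08% in the KO-labelled libraries and 17.7% in the controls, where control 1 was high and control 4 low. Bmp4, the ligand of the dorsal midline, had 15, 5, 14 and 9 counts in KO-labelled libraries and 4, 11, 3 and 6 counts in controls, or 43 counts in all KO-labelled libraries against 24 in all controls. The groups overlapped. With no filter on low counts, its log2 fold change was 0.80 ± 0.66 (SE), with an edgeR adjusted p of 0.491, a change that was not detectable at this depth. Its exons overlap those of Gm15217 on the other strand, which had at most 3 counts in any library.

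**Figure D1:**
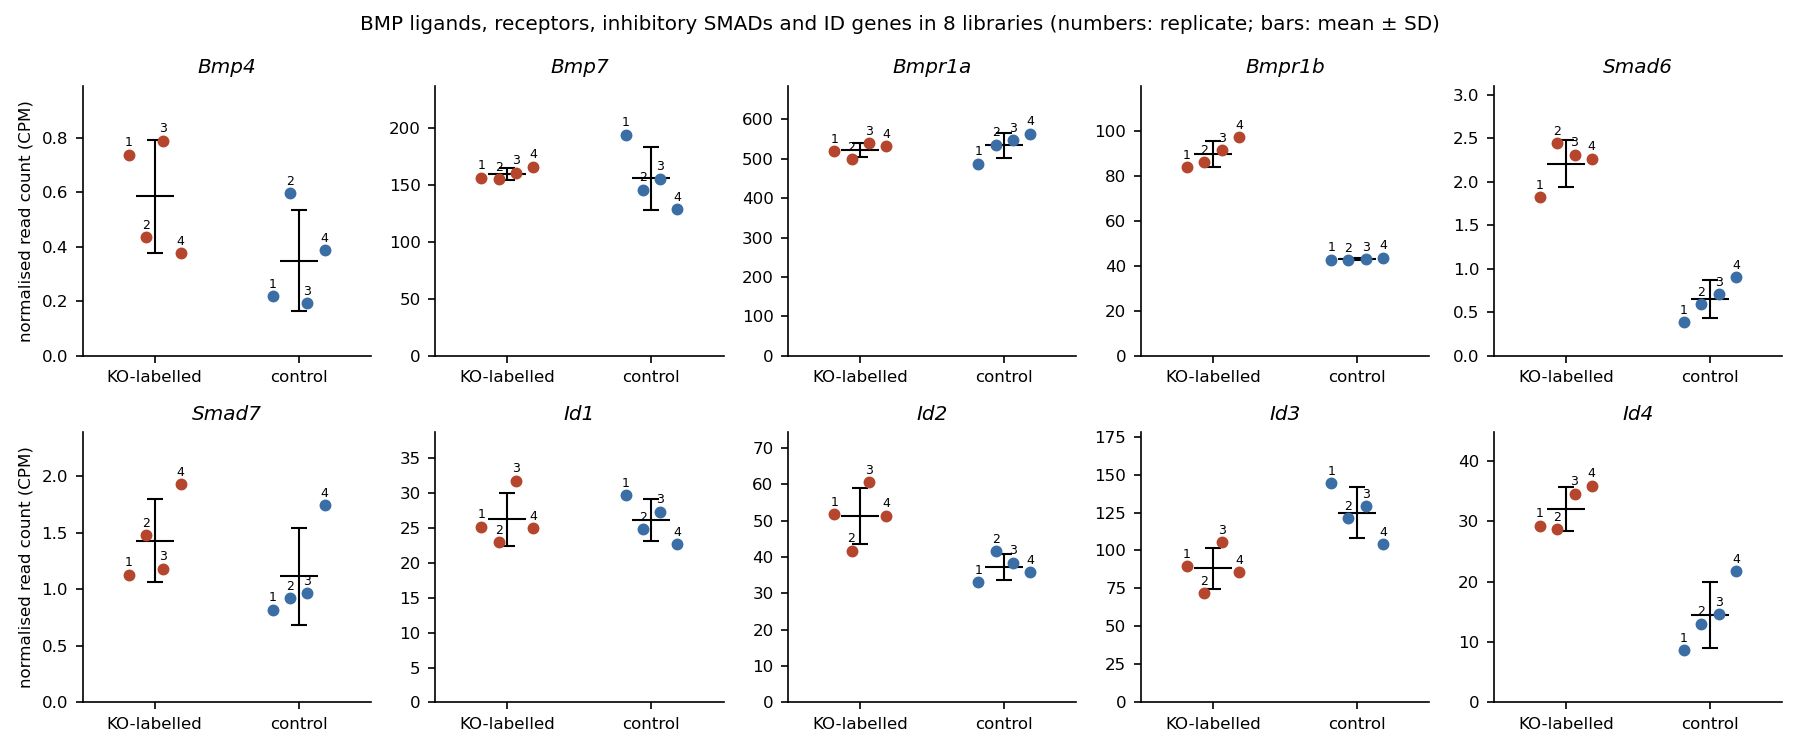
Normalised read count (CPM, y axis from 0, a scale of its own per gene) of the 10 genes in the KO-labelled and control libraries; points are libraries with their replicate number, and bars are the mean ± SD of 4. Bmpr1b, Smad6 and Id4 are higher in every KO-labelled library than in any control, Id2 is so by a narrow margin, and Id3 overlaps between KO-labelled 3 and control 4.

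The type I receptor genes parted. Bmpr1b, whose receptor relays signals of BMP and GDF ligands, was 2.09-fold higher in the KO-labelled libraries. It had 83.9, 86.0, 91.4 and 97.1 CPM in KO-labelled libraries 1 to 4, against 42.7, 42.4, 43.0 and 43.6 CPM in controls 1 to 4. The groups did not overlap, and the lowest KO-labelled value was well above the highest control. The log2 fold change was 1.06 ± 0.09 (SE), with a 95% interval of 0.88 to 1.24 and an edgeR adjusted p of 5.39e-07, and it stayed between 1.02 and 1.10 whichever library was left out. Bmpr1a, the broadly expressed type I receptor, had 518.4, 498.7, 539.0 and 532.0 CPM in KO-labelled libraries and 487.7, 535.7, 547.5 and 563.7 CPM in controls. Its groups overlapped fully, and the log2 fold change was -0.03 ± 0.08 (SE), with a 95% interval of -0.21 to 0.14 and an edgeR adjusted p of 0.804. Per kilobase of exon, Bmpr1b made up 15.1% ± 0.641 of the summed level of both genes in the KO-labelled libraries and 7.73% ± 0.411 in the controls (SD, n = 4 each). Bmpr1a was thus the more abundant of the pair in every library.

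Of 15 other receptor and coreceptor genes of the TGF-beta superfamily, 10 could be tested; 2 were higher and 0 lower by edgeR, with a median log2 fold change of 0.05 beside 0.0011 over all genes. At an unadjusted p under 0.05, 3 were higher and 1 lower, and DESeq2 and limma voom each called 1 lower. Acvr2a, a type II receptor shared by activins and BMPs, had 60.4 ± 2.48 CPM in KO-labelled libraries and 47.3 ± 4.56 CPM in controls (log2 fold change 0.35 ± 0.09 SE, edgeR adjusted p = 0.0111); its exons overlap those of Orc4 on the other strand. Rgma, a BMP coreceptor also known in axon guidance, had 23.7 ± 4.80 CPM in KO-labelled libraries and 17.3 ± 1.99 CPM in controls (0.46 ± 0.14 SE, edgeR adjusted p = 0.0261). The call of Rgma was lost without KO-labelled 2 or 4 or without control 1, 2 or 3, with an adjusted p between 0.0559 and 0.116 by edgeR, and Acvr2a was then the 1 gene called higher. Without control 4, 3 were higher and 1 lower; 2 were lower without KO-labelled 2 and 1 without KO-labelled 3. Bmpr2, the type II receptor of BMPs, had 518.8 ± 44.3 CPM in KO-labelled libraries and 512.5 ± 41.7 CPM in controls (0.02 ± 0.09 SE), a gene named after its values were seen.

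Of the inhibitory SMAD genes, Smad6 passed the test and Smad7 did not. Smad6, whose protein acts mainly against BMP receptors, had 1.82, 2.44, 2.31 and 2.26 CPM in KO-labelled libraries 1 to 4 and 0.384, 0.597, 0.709 and 0.905 CPM in controls 1 to 4. These rest on 160 counts in the KO-labelled libraries together and 43 in the controls. The groups did not overlap, and control 4 was the highest of the controls. Its log2 fold change was 1.77 ± 0.31 (SE), with a 95% interval of 1.09 to 2.44 and an edgeR adjusted p of 0.000729, or 3.40-fold, and between 1.57 and 1.95 without any 1 library. Smad6 passed the filter on low counts, at 0.552 CPM, through the KO-labelled libraries, since control 1 lay below it. Smad7, whose protein acts against both TGF-beta and BMP receptors, had 23, 17, 21 and 46 counts in KO-labelled libraries and 15, 17, 15 and 27 counts in controls. It had 1.43 ± 0.366 CPM in KO-labelled libraries and 1.11 ± 0.425 CPM in controls, with replicate 4 the highest in each group. The groups overlapped and the log2 fold change was 0.38 ± 0.34 (SE), with a 95% interval of -0.35 to 1.10 and an edgeR adjusted p of 0.436. Smad6 and Smad7 were not tested against each other. Without control 4 the value was 0.66, and without KO-labelled 4 it was 0.17.

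All 6 of the signalling SMAD genes could be tested, and 2 were higher and 1 lower, with a median log2 fold change of -0.000855. Smad5, an effector of BMP receptors, had 749.1, 663.7, 686.4 and 692.1 CPM in KO-labelled libraries and 457.1, 481.3, 494.4 and 438.1 CPM in controls. Every KO-labelled value was above every control (log2 fold change 0.58 ± 0.08 SE, edgeR adjusted p = 0.000121). Smad9, another BMP effector, was also higher (12.9 ± 1.41 CPM in KO-labelled libraries against 9.45 ± 1.24 CPM in controls; 0.45 ± 0.13 SE, edgeR adjusted p = 0.0189), a call lost without KO-labelled 1 or 4 or control 2 (adjusted p between 0.0547 and 0.085 by edgeR). Smad1, the third BMP effector, had 72.5 ± 3.51 CPM in KO-labelled libraries and 80.4 ± 5.54 CPM in controls and did not pass (-0.15 ± 0.09 SE, edgeR adjusted p = 0.219); it was named after its values were seen. Per kilobase of exon, Smad5 held 85.5% ± 0.74 of the summed level of these 3 genes in the KO-labelled libraries and 79.0% ± 1.12 in the controls. Smad2, an effector of TGF-beta and activin receptors, was lower by a log2 fold change of -0.25 ± 0.09 (SE), with an edgeR adjusted p of 0.0494; this call held without control 1 and was lost in each of the 7 other fits that left out a library, with robust dispersion, with no filter on low counts, and with replicate number as a block (edgeR adjusted p = 0.112).

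**Figure D2:**
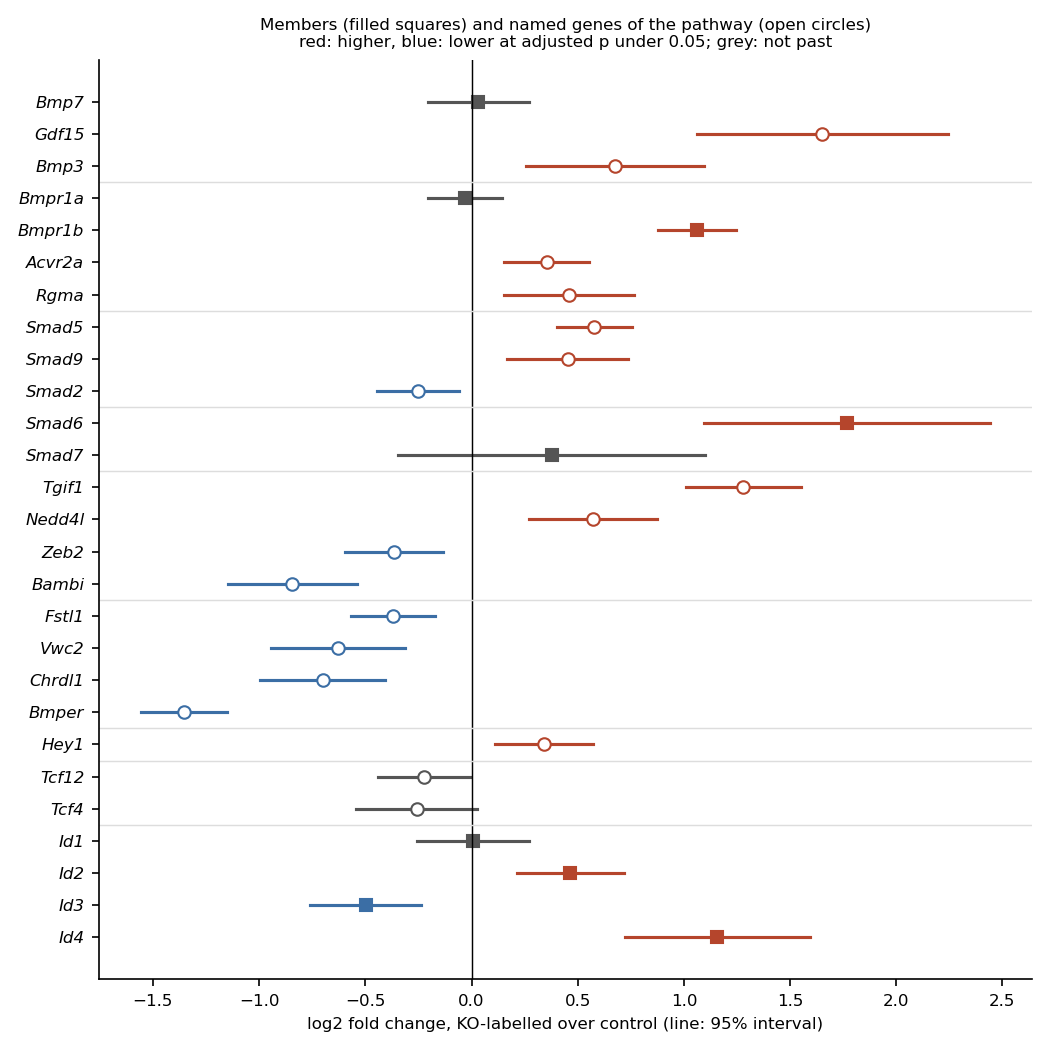
Log2 fold change (x axis) of KO-labelled over control libraries for the 9 tested members and 18 other genes of the pathway, with lines for the 95% interval; rows are grouped by role, from ligands at the top to ID genes at the bottom. Smad6, Gdf15 and Tgif1 stand furthest to the right and Bmper furthest to the left.

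The ID genes moved in different directions. Id4, which marks neural stem cells and the oligodendrocyte and astrocyte lineages, was 2.23-fold higher in the KO-labelled libraries. It had 29.3, 28.7, 34.6 and 35.9 CPM in KO-labelled libraries 1 to 4 and 8.61, 13.0, 14.6 and 21.7 CPM in controls 1 to 4. The groups did not overlap, and the coefficient of variation was 11.4% in the KO-labelled libraries and 37.6% in the controls. The log2 fold change was 1.16 ± 0.20 (SE), with a 95% interval of 0.72 to 1.59 and an edgeR adjusted p of 0.000673, 1.41 without control 4 and 0.97 without control 1. An antisense RNA, A330033J07Rik, overlaps Id4 exons. It had between 12 and 22 counts in KO-labelled libraries and between 6 and 15 in controls, against Id4 sums of 2393 counts in KO-labelled libraries and 959 in controls, and did not pass (adjusted p = 0.188 by edgeR).

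Id2, expressed in progenitors and in some postmitotic neurons, was 1.38-fold higher. It had 51.9, 41.7, 60.5 and 51.4 CPM in KO-labelled libraries and 33.1, 41.6, 38.4 and 35.9 CPM in controls. The groups did not overlap, though KO-labelled 2 lay just above control 2. The log2 fold change was 0.47 ± 0.12 (SE), with a 95% interval of 0.21 to 0.72 and an edgeR adjusted p of 0.00823. Id3, a direct BMP target of progenitors that blood vessels also express, went the other way. It had 89.8, 72.1, 105.4 and 85.6 CPM in KO-labelled libraries and 144.4, 121.4, 129.2 and 104.1 CPM in controls, and only KO-labelled 3 lay above the lowest control. Its log2 fold change was -0.50 ± 0.12 (SE), with a 95% interval of -0.76 to -0.24 and an edgeR adjusted p of 0.00676, 0.708 times the control level. Id1, a gene with a well studied BMP response element, had 25.2, 23.0, 31.8 and 25.0 CPM in KO-labelled libraries and 29.8, 24.9, 27.3 and 22.7 CPM in controls. These overlapped, and the log2 fold change was 0.01 ± 0.12 (SE), with a 95% interval of -0.26 to 0.27 and an edgeR adjusted p of 0.977. The calls of Id2, Id3 and Id4 held without any 1 library, with adjusted p of at most 0.0299, 0.0265 and 0.00346 by edgeR.

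Summed over the 4 genes, the ID level was 198.0 ± 27.3 CPM in the KO-labelled libraries and 202.7 ± 13.7 CPM in the controls, a log2 ratio of means of -0.03 that was 0.04 without KO-labelled 2. Per kilobase of exon, which gives the shorter genes more weight, the sum was 121.1 ± 17.6 CPM per kb in the KO-labelled libraries and 139.3 ± 13.9 in the controls, and the groups overlapped on both scales. Of the sum per kilobase, Id3 held 57.0% ± 0.995 in the KO-labelled libraries and 69.9% ± 2.50 in the controls, and it was the largest part in every library. Id2 held 17.4% ± 0.336 in the KO-labelled libraries and 11.1% ± 1.66 in the controls, and Id4 6.94% ± 0.796 in the KO-labelled libraries and 2.80% ± 1.34 in the controls. Id1 held 18.7% ± 0.80 in the KO-labelled libraries and 16.2% ± 0.402 in the controls. These shares are descriptions with no test.

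**Figure D3:**
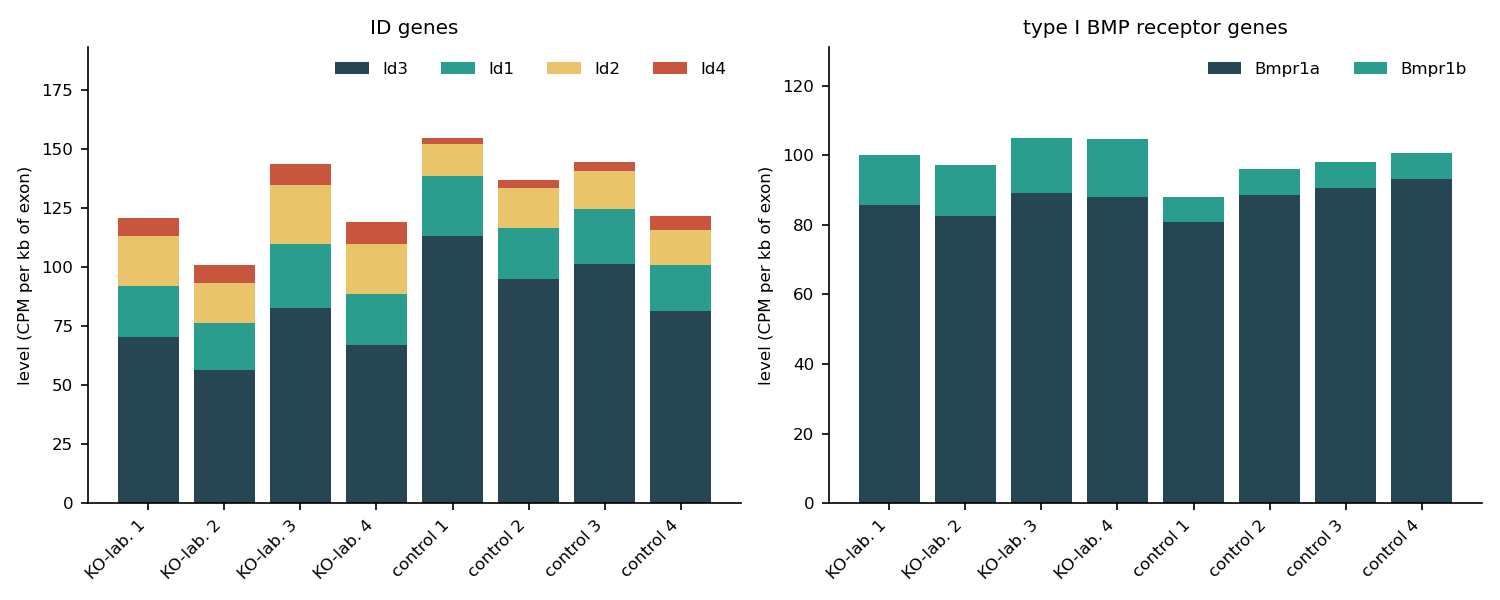
Level in CPM per kilobase of exon (y axis, from 0) of the ID genes, left, and of the type I BMP receptor genes, right, stacked for each library; KO-labelled libraries stand left of the controls. The Id2 and Id4 parts are larger in each KO-labelled bar than in any control bar, the Id3 part is smaller except in KO-labelled 3 against control 4, and the Bmpr1b part is 15.1% of the receptor bar in the KO-labelled libraries and 7.73% in the controls.

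On the same per-kilobase scale the receptor gene Bmpr1a had 86.3 ± 2.94 CPM per kb in KO-labelled libraries, where it was the highest of the 10 genes, and 88.3 ± 5.41 in controls, where Id3 was above it. Bmp4 was the lowest in both groups, at 0.283 ± 0.101 CPM per kb in KO-labelled libraries and 0.169 ± 0.0902 in controls. In the KO-labelled libraries Bmpr1a was followed by Id3 (69.0 ± 10.7), Bmp7 (43.6 ± 1.34), Id1 (22.6 ± 3.30), Id2 (21.1 ± 3.15), Bmpr1b (15.4 ± 1.02), Id4 (8.34 ± 0.951), Smad6 (0.743 ± 0.0906) and Smad7 (0.327 ± 0.0835). In the controls the order was Id3 (97.6 ± 13.1), Bmpr1a, Bmp7 (42.6 ± 7.54), Id1 (22.6 ± 2.64), Id2 (15.3 ± 1.49), Bmpr1b (7.37 ± 0.0843), Id4 (3.76 ± 1.42), Smad7 (0.255 ± 0.0971), Smad6 (0.218 ± 0.0733) and Bmp4. Id1 and Id2 overlapped in the KO-labelled libraries and not in the controls. Id3 and Bmpr1a overlapped in the controls, and Smad6, Smad7 and Bmp4 overlapped one another there as well. Smad7 and Bmp4 overlapped in the KO-labelled libraries too. In the KO-labelled libraries the highest Id3 and the lowest Bmpr1a value were both 82.5 CPM per kb.

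Markers of several cell types are given next, and their part in these results was not tested. The summed levels of the astrocyte, endothelial and mesenchymal lists did not overlap between the groups. Those of the roof plate and choroid plexus, neuronal, microglial and progenitor lists did. The 10 astrocyte markers summed to between 2596.7 and 2755.1 CPM in KO-labelled libraries and between 1389.7 and 1735.0 CPM in controls. Slc1a3 was the largest part of both sums (1412.4 CPM in KO-labelled libraries and 1141.9 in controls, 1.24-fold). Gfap was 9.60-fold higher, while Aldh1l1 and Sox9 did not pass. In this list 8 of 10 were higher, beside 16.1% of all genes, and none was at 0. That is the direction of Bmpr1b, Smad6, Id4 and Id2 and against that of Id3. The 10 endothelial markers summed to between 4.70 and 9.67 CPM in KO-labelled libraries and between 11.1 and 18.1 CPM in controls. That is the direction of Id3 and against that of Bmpr1b, Smad6, Id4 and Id2, while Id1 did not pass. Of 5 endothelial markers that could be tested, Kdr and Flt1 were lower, and Pecam1, Esam and Egfl7 did not pass. Cdh5, Tie1 and Cldn5 had 0 counts in at least 1 library. The 12 mesenchymal markers summed to between 60.0 and 76.0 CPM in KO-labelled libraries and between 112.1 and 186.4 CPM in controls. This, too, is the direction of Id3 and against that of the members called higher. Of 10 tested, 8 were lower, beside 13.9% of all genes, while Twist1 was higher and Dcn was at 0 in 1 library. Mgp and Ogn, both among the 8, and Twist1 passed the filter on low counts through the group in which each is high. Every KO-labelled library of Mgp, KO-labelled 1 and 2 of Ogn and controls 1, 3 and 4 of Twist1 lay below 0.552 CPM. The 9 roof plate and choroid plexus markers summed to between 13.8 and 17.9 CPM in KO-labelled libraries and between 8.83 and 15.6 CPM in controls; Otx2 was higher, and Ttr, the defining gene of choroid plexus, had 0 counts in every library. Neuronal markers summed to between 374.3 and 455.5 CPM in KO-labelled libraries and between 409.7 and 534.8 CPM in controls, with 2 of 10 higher and 3 lower. Map2, which did not pass, made most of these sums (345 CPM in KO-labelled libraries and 389 in controls). Microglial markers summed to at most 3.14 CPM in KO-labelled libraries and at most 4.53 CPM in controls. Tmem119, the 1 of 8 that could be tested, was lower. It passed the filter on low counts through the controls, since KO-labelled 1 and 4 lay below 0.552 CPM. C1qa, C1qb and C1qc were at 0 in at least 1 library. Of the 10 progenitor markers 5 were higher and 3 lower.

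Outside the cell, 8 of 17 tested antagonists and modulators of BMP ligands passed, 3 higher and 5 lower, with a median log2 fold change of -0.27. That is 47.1% of those tested, beside 30.0% of all genes, a difference that was not tested. Bmper, a secreted protein that can block or aid BMPs, had 27.4, 24.8, 23.2 and 25.4 CPM in KO-labelled libraries and 59.9, 63.7, 63.9 and 70.1 CPM in controls. Each KO-labelled library was below each control (log2 fold change -1.35 ± 0.09 SE, edgeR adjusted p = 1.42e-07). Chrdl1, a BMP-binding relative of chordin on the X chromosome, fell to 75.1 ± 8.85 CPM in KO-labelled libraries, against 122.1 ± 23.9 CPM in controls (-0.70 ± 0.14 SE, edgeR adjusted p = 0.00145). Vwc2, another BMP-binding secreted protein (-0.63 ± 0.15 SE), and the follistatin-like gene Fstl1 (-0.37 ± 0.09 SE) were lower too, with adjusted p of 0.00519 and 0.00763 by edgeR. The others were of low level, and those given here were named after their values were seen. Nog, which encodes the antagonist noggin, had 4.28 ± 0.686 CPM in KO-labelled libraries and 2.35 ± 0.878 CPM in controls (0.88 ± 0.25 SE, edgeR adjusted p = 0.0158). Dand5, also an antagonist, was higher (1.47 ± 0.43 SE), whereas Fst, which encodes follistatin, was lower (-2.00 ± 0.41 SE). Dand5 and Fst passed the filter on low counts through the group in which each is high, since controls 1 and 3 of Dand5 and KO-labelled 2, 3 and 4 of Fst lay below 0.552 CPM. Under a filter of at least 1 CPM in 4 libraries, 1 of the list was higher and 4 lower.

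Among 6 of the 18 other BMP and GDF ligand genes that could be tested, 2 were higher and 0 lower by edgeR, with a median log2 fold change of 0.14. At an unadjusted p under 0.05, 3 were higher and 0 lower; limma voom called 1 lower and DESeq2 0. Gdf15, a distant member of the family known as a stress-induced secreted factor, had 6.45, 5.66, 8.17 and 6.54 CPM in KO-labelled libraries and 2.14, 3.04, 2.52 and 0.776 CPM in controls. The groups did not overlap (log2 fold change 1.65 ± 0.28 SE, edgeR adjusted p = 0.00044). Bmp3, which acts against other BMPs, had 6.27 ± 0.396 CPM in KO-labelled libraries and 3.92 ± 1.14 CPM in controls (0.68 ± 0.20 SE, edgeR adjusted p = 0.0177); without KO-labelled 4 its call was lost (adjusted p = 0.0628 by edgeR). By edgeR, 3 ligands were called higher without control 1 and 1 lower without control 4.

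Inside the cell, 5 of 15 regulators of SMAD signalling passed, 3 higher and 2 lower, with a median log2 fold change of 0.08. That share, 33.3%, is near the 30.0% of all genes. Tgif1, a homeodomain corepressor that binds SMAD2 and SMAD3, had 33.8 ± 3.55 CPM in KO-labelled libraries and 13.9 ± 2.12 CPM in controls. There was no overlap (log2 fold change 1.28 ± 0.13 SE, edgeR adjusted p = 4.61e-06). Bambi, a pseudoreceptor that is itself induced by BMP in many tissues, had 9.89, 9.76, 12.2 and 8.80 CPM in KO-labelled libraries and 16.3, 16.4, 17.5 and 22.8 CPM in controls. Every KO-labelled value lay below every control (-0.84 ± 0.14 SE, edgeR adjusted p = 0.000484). Nedd4l, a ubiquitin ligase for SMAD2 and SMAD3, was higher (0.57 ± 0.14 SE, edgeR adjusted p = 0.00726) and Zeb2, a SMAD-binding repressor, lower (-0.37 ± 0.11 SE, edgeR adjusted p = 0.0192). Without KO-labelled 1 or 4 the call of Zeb2 was lost (adjusted p of 0.0626 and 0.0565 by edgeR), and 1 gene was then lower and 2 higher. The phosphatase gene Ppm1a was the other one higher (0.36 ± 0.11 SE, edgeR adjusted p = 0.0202), named after its values were seen.

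Of 8 transcription factors that answer to BMP in other settings, 4 could be tested, and Hey1 alone passed. At an unadjusted p under 0.05, 1 was higher and 0 lower, and DESeq2 called 1 lower. Hey1, a repressor shared with the Notch pathway, had 114.0 ± 15.0 CPM in KO-labelled libraries and 90.2 ± 8.82 CPM in controls (log2 fold change 0.34 ± 0.11 SE, edgeR adjusted p = 0.0275). The call was lost without KO-labelled 3 or 4 or without control 1, 2 or 3 (adjusted p between 0.0634 and 0.111 by edgeR), and 1 gene of the list was called lower without KO-labelled 2, KO-labelled 3 or control 1. Msx1, a marker of dorsal BMP signalling, had 2.31 ± 0.551 CPM in KO-labelled libraries and 1.61 ± 0.372 CPM in controls (0.51 ± 0.28 SE, edgeR adjusted p = 0.188). Msx2, a related factor, was too low to test, and both were named after their values were seen. The 3 E protein genes, whose proteins ID proteins bind, did not pass (0 higher and 0 lower by edgeR and by DESeq2; 0 higher and 2 lower at an unadjusted p under 0.05). By limma voom 2 were lower, and edgeR called 1 lower with upper-quartile scaling, with a filter of at least 1 CPM in 4 libraries, and without KO-labelled 2 or control 1. Tcf3, named after its values were seen, had 10.6 ± 0.935 CPM in KO-labelled libraries and 13.0 ± 0.713 CPM in controls (-0.29 ± 0.11 SE, edgeR adjusted p = 0.0677), and every KO-labelled value lay below every control. Tcf4 had 196.2 ± 42.2 CPM in KO-labelled libraries and 234.5 ± 24.8 CPM in controls (-0.26 ± 0.13 SE, edgeR adjusted p = 0.165), and Tcf12 had 199.1 ± 16.6 CPM in KO-labelled libraries and 232.4 ± 28.3 CPM in controls (-0.22 ± 0.10 SE, edgeR adjusted p = 0.113).

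Across the 7 lists of the rest of the pathway, 61 of 87 genes could be tested, and 13 were higher and 8 lower, or 34.4%, beside 30.0% of all genes. The median log2 fold change was -0.07 over these 61 genes and 0.0011 over all genes. The share is close to that of all genes, and without KO-labelled 4 the number higher was 7. Of the 9 tested members, 4 did not overlap between the groups, all with the KO-labelled libraries above. Over all genes 29.9% did not overlap and 15.9% had the KO-labelled libraries above. The members were chosen with earlier results of these data known, and Smad6 passed the filter on low counts through the KO-labelled libraries. Their count therefore says nothing of whether they stand out from all genes.

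**Figure D4:**
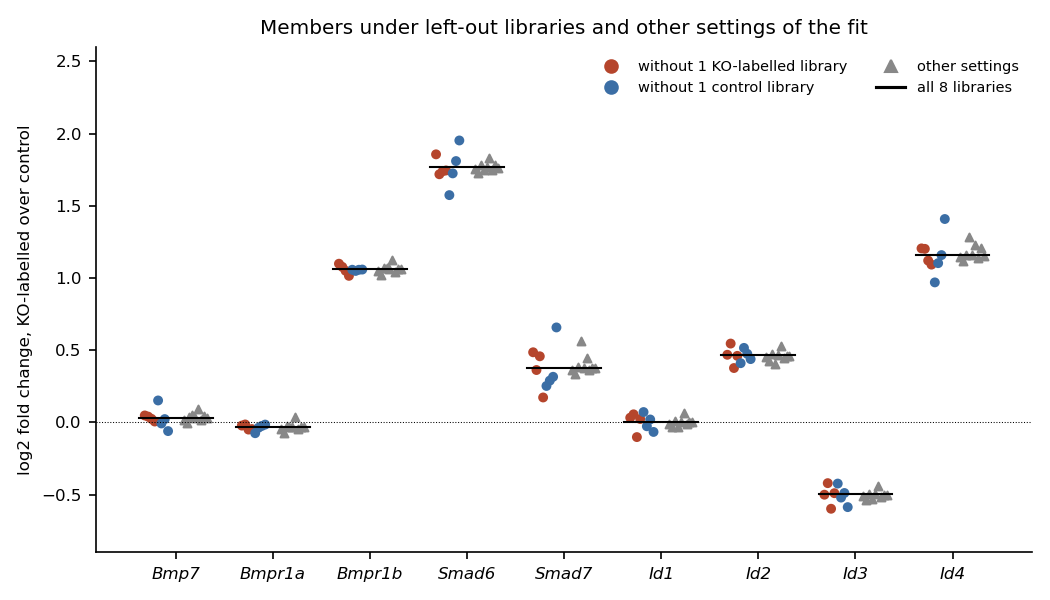
Log2 fold change (y axis) of KO-labelled over control libraries for the 9 tested members when 1 library is left out (circles) and under other settings of the fit (triangles); black lines are the values with all 8 libraries. Bmpr1b, Smad6, Id2 and Id4 stay above 0 and Id3 below 0 in every fit, and Smad7 ranges from 0.17 to 0.66.

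Some genes followed the ID genes closely over the 8 libraries, measured as the root mean square difference of log2 CPM after subtracting the mean of the controls, among 10172 genes that averaged 5 CPM or more in either group. Nearest to Id1 were Ywhaq (0.049) and Bloc1s2 (0.068), nearest to Id2 were Fbxo8 (0.063) and Atg3 (0.072), and nearest to Id3 were Lurap1l (0.077) and Nr2f6 (0.081). Id4 had no neighbour so close: Atg10 (0.21) and Nfasc (0.22) came nearest. The nearest of 10172 genes are close by selection, and no distance expected by chance was computed. The measure also follows the group difference, as with Id2 and Fbxo8 (log2 fold changes of 0.47 and 0.46). Shared regulation was not tested.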

How the data were processed

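Libraries came from a stranded total RNA kit with paired-end sequencing, per the labels' protocols. The authors deposited raw read counts for each gene symbol, made with HTSeq 0.6.1p1 (CASAVA and the mouse builds mm9 and NCBIM37 are also named), per the submitters' processing notes; no aligner or strand setting is given in the sources used here. Genes were kept by filterByExpr (minimum count 10), scaled by TMM and tested with edgeR 4.0.16 (glmQLFit and glmQLFTest) in R 4.3.3, 4 libraries against 4, with Benjamini-Hochberg adjustment over all 15021 genes tested and a threshold of 0.05. The fit was first tested on simulated counts. The SE is the log2 fold change divided by the square root of F, and intervals are 95% intervals from it. Exon lengths, overlaps and chromosomes were matched by symbol in GENCODE M21 and RefSeq (GRCm38), another assembly than that of the counts, so levels per kilobase are approximate. Alternatives used DESeq2 1.42.0, limma 3.58.1 and other scalings, filters and left-out libraries. The members and lists were chosen with earlier results of these data known. Genes named beyond the members are up to 4 past the threshold per list with the largest change and at least 5 CPM in the higher group (where no gene of a list passed, the 2 most abundant), Trp53bp1, and the 2 genes nearest each ID gene; others are marked in the text or are markers and overlapping genes. Each replicate number is shared by a KO-labelled and a control library; the deviations of such pairs from their group means correlated over 0.1 in 2 of 4 pairs, so libraries were not paired. The values of 1 gene that passed in these lists are not reported here.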

Additional observations from a re-analysis of the deposited data

Results flagged for a closer look

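Smad7 in control 4 had 1.75 CPM, far from the other controls, which lay between 0.822 and 0.967 CPM. The library had 27 counts of Smad7, and the other controls 15 to 17. Dixon's ratio was 0.843, above the 95% critical value for 4 samples. Chance flags about 1 in 20 groups, and 20 groups of 4 libraries were looked at, so 1 is the number chance would give.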

How the results depend on the processing

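Bmpr1b, Smad6, Id2, Id4 and Id3 kept their direction and passed the threshold in all 9 other settings and all 8 fits without 1 library, and Bmp7, Bmpr1a, Smad7 and Id1 passed in none of them. Over the other settings the log2 fold change was 1.02 to 1.13 for Bmpr1b, 1.73 to 1.83 for Smad6, 1.12 to 1.28 for Id4, 0.41 to 0.53 for Id2 and -0.54 to -0.44 for Id3. In the rest of the pathway, 14 genes were lower by limma voom, and without 1 library the number higher ran from 7 to 14 and the number lower from 6 to 11. Over the whole table, where 2412 genes were higher and 2087 lower, upper-quartile scaling gave 2131 higher and 2400 lower, no filter on low counts 2879 and 1754, and limma voom 3127 and 2974. With the replicate block, 2237 genes were higher and 1940 lower over the whole table, Id2 had a log2 fold change of 0.46 and Id4 of 1.21, and Smad2 lost its call (-0.25). Same-numbered libraries deviated with correlations of 0.25, 0.28, -0.16 and 0.0099, and 4 of 8 libraries correlated best with their own number. Depth limits Bmp4, Smad6 and Smad7, which had 43, 160 and 107 counts in all KO-labelled libraries and 24, 43 and 74 in all controls.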
